A study of Mus musculus with 4 samples.

Results

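Resting Rag1-positive pre-B cells are B cell precursors that carry the message of a recombinase subunit and do not divide. Here they were picked from the growth plate region of mice 7 days after a growth plate injury. A member is a cell barcode with at least 200 genes, at most 20% mitochondrial UMIs (unique molecular identifiers, each a counted RNA molecule), at least 1 UMI of Ebf1 and of Rag1, and 0 UMIs of Dntt, Mki67, Top2a, Ly6g and Csf1r. The rule found 1188 members, 634 in the 1NMPP1 library and 554 in the vehicle library, among 27654 barcodes of the 4 libraries of the series and 26153 that passed the filters on genes and mitochondrial UMIs, called kept barcodes below. The rule itself used measured values, so the levels of its genes describe the choice and are no finding. Of division genes it used only Mki67 and Top2a, so the members are not shown to be free of dividing cells. With 0 UMIs of a wider set of S phase and mitosis genes asked for instead, 389 and 357 barcodes were left.

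The 1NMPP1 mice received the kinase inhibitor 1NMPP1 by intraperitoneal injection at 17 µg/g body weight 48 h and 2 h before surgery, and then in their drinking water at 40 µM. The vehicle mice received DMSO vehicle. All mice of both groups carry the genotype that the labels name TrkAF592A, an altered kinase that 1NMPP1 can block, so no group has the unaltered kinase. The distal femur with the tissue around its injured growth plate, read here, gave a library of each treatment, and lumbar dorsal root ganglia (DRG) gave another of each. The sources used here state neither strain, age and sex nor how many mice entered a library. Each group has 1 library, so no difference between 1NMPP1 and vehicle has a replicate check, no test was run, and every interval below is at 95% and covers counting error only.

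B cells are made in the bone marrow, which lies beside the growth plate. A pro-B cell joins the segments of the heavy chain gene, with terminal transferase (Dntt) adding bases at the joints. The heavy chain then pairs with the surrogate light chain, built of the products of Igll1 and of Vpreb1 or Vpreb2, to form the pre-B cell receptor. After a burst of division the cells stop cycling, silence the surrogate light chain genes and express Rag1 and Rag2 again, whose products cut the light chain genes kappa (Igk) and then lambda (Igl). Ebf1 and Pax5 are transcription factors that hold cells in the B lineage, and Vpreb3 encodes a relative of the surrogate light chain that stays on in later pre-B cells.

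The surrogate light chain genes and Vpreb3 part ways in the cells described here, and the promoters of Igll1, Vpreb1 and Vpreb3 are shown for that reason. Each sequence runs 5′ to 3′ on the gene's strand, from 250 bases before to 50 bases after the start annotated by RefSeq in build GRCm38.p6, which is mm10, and capitals mark CAGGTG or its reverse complement CACCTG, an E-box of the kind that E2A proteins bind. The windows are chr16:16863936-16864235 (minus strand) for Igll1, chr16:16869206-16869505 (minus strand) for Vpreb1 and chr10:75948050-75948349 (plus strand) for Vpreb3.

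Igll1: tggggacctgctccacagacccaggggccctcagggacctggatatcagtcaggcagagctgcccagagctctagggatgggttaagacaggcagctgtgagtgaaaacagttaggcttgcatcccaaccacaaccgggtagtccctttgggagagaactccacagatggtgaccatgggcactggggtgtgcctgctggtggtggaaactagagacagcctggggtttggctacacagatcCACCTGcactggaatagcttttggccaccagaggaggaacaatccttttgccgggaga

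Vpreb1: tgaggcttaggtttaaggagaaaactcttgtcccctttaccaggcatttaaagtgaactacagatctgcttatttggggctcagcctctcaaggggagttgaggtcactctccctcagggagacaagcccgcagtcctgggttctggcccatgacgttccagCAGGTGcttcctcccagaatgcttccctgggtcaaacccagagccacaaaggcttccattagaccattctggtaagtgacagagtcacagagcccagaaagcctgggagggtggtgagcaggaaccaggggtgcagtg

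Vpreb3: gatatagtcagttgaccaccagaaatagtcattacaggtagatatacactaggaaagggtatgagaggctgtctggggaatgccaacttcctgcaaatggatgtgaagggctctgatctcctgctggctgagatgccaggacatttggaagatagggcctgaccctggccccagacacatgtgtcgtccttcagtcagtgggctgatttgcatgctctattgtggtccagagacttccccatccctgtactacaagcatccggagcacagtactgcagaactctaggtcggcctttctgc

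Igll1 held 1 match, whose first base lies 8 bases before the start. Vpreb1 held 1 match, 88 bases before the start. The Vpreb3 window had none. The Vpreb2 window, not shown, also held 1 match and was 98.1% identical to that of Vpreb1 over 156 bases. Of all 32851 promoter windows of this length in the same RefSeq table, 6640 or 20.2% held the motif on either strand, so a match is a description and not a binding site. Gene positions come from another annotation, GENCODE. There the Vpreb3 gene starts at chr10:75943057 and the Vpreb1 gene at chr16:16870843, so both printed windows lie inside these genes. The matches found thus depend on the start used. Igll1 and Vpreb1 are neighbours on chromosome 16, with 4418 bases between the genes. Rag1 (chr2:101638282-101649501) and Rag2 (chr2:101624718-101632529) likewise lie side by side on chromosome 2, with 5753 bases between them.

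From the growth plate, 11807 barcodes with 139703885 UMIs were counted after 1NMPP1 and 9560 barcodes with 102692919 UMIs after vehicle, of which 11634 and 9380 were kept. Members had a median of 5451 UMIs (range 688 to 15455) in the 1NMPP1 library and 4728 UMIs (range 605 to 36705) in the vehicle library, and a median of 2248 and 2050 genes. The 2 libraries shared 40 barcodes, and no barcode was a member in both. Both libraries held male-called and female-called cells, in different proportions. By UMIs of Y-linked genes or of Xist, 141 members (22.2%) were called male and 407 (64.2%) female in the 1NMPP1 library, against 272 (49.1%) and 151 (27.3%) in the vehicle library. Values within each sex call are therefore given beside the results they touch.

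The thresholds of the rule lie where many cells are. Exactly 1 Rag1 UMI was found in 134 members (21.1%) of the 1NMPP1 library and 166 (30.0%) of the vehicle library, with medians of 3 and 2 Rag1 UMIs. Just outside were 623 and 593 barcodes that failed only for lack of a Rag1 UMI, 109 and 68 that had 1 UMI of Mki67 or Top2a, and 20 and 9 that had 1 Dntt UMI. Ebf1 left few doubtful cells, since its median was 53 UMIs in 1NMPP1 members and 55 in vehicle members, and 4 and 2 members had a single one.

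Genes that the rule did not use were read beside the label. The markers among them were chosen with earlier results of these data known, so their presence is a description and no independent check. No other B lineage class is compared in this step. Levels are CPM, the UMIs of a gene scaled to the same total of UMIs over the members of each library, and they compare libraries or classes for 1 gene, not genes with each other. Vpreb3 stood at 2492 CPM in the 1NMPP1 library and 2468 CPM in the vehicle library, with a UMI in 97.3% and 95.7% of members. Cecr2, a chromatin remodelling subunit, was detected in 98.1% and 97.5% of members, and Pax5 in 95.4% and 96.8%. Rag2, the partner of Rag1, reached 41.5 CPM (interval 34.9 to 48.8) and 38.4 CPM (31.4 to 46.5), with a UMI in 18.9% and 16.3% of members. The signalling chains of the receptor, Cd79a and Cd79b, were found in 97.6% and 98.6% of 1NMPP1 members and in 97.1% and 97.5% of vehicle members. Of the 5 marker genes given for the cell type, Vpreb3, Cecr2 and Pax5 were thus found in most members of both libraries, while Rag1 and Ebf1 were present by the rule.

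Markers of other cells were also read. The 9 neutrophil markers summed to 9607 CPM in 1NMPP1 members and 7892 CPM in vehicle members, against 138794 and 148643 CPM over all kept barcodes; Ly6g was at 0 by the rule. S100a8, a neutrophil gene, had a UMI in nearly every member, in 632 of 634 and 553 of 554. The 6 erythroid markers summed to 2332 and 1330 CPM, and the 8 monocyte and macrophage markers to 377 and 246 CPM, with Csf1r at 0 by the rule. The 7 T cell markers summed to 6.67 and 1.48 CPM with Cd4 at 0 in both libraries, the 5 NK cell markers to 13.6 and 7.01 CPM, the 5 plasmacytoid dendritic cell markers to 43.8 and 26.9 CPM with Cd209d and Klk1 at 0 in both, and the 5 early progenitor markers to 9.57 and 7.01 CPM. The 5 plasma cell markers, some of which B cell precursors also express, summed to 418 and 426 CPM. The 6 stromal markers stood far apart between the libraries, at 18.8 CPM in 1NMPP1 members and 373 CPM in vehicle members. A pair of vehicle members, with 25929 and 36705 UMIs, held 2576 of the 2776 UMIs of the cartilage collagen gene Col2a1 found in vehicle members (92.8%), 1941 of 2034 UMIs of Sparc (95.4%) and 268 of 299 UMIs of Col1a1 (89.6%). In the 1NMPP1 library, 2 members held 1497 of 1640 UMIs of the hemoglobin gene Hba-a1 (91.3%). These and other members with over 5% of UMIs from S100a8 and S100a9, over 5% from hemoglobin genes or over 1% from Col2a1, Sparc and Col1a1, number 9 and 12 and are called carrier members below; results are given without them where they matter.

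The members were set beside 4 other B lineage classes of the same libraries, all with an Ebf1 UMI and the same filters. Pro-B barcodes had a Dntt UMI (334 in the 1NMPP1 library, 229 in the vehicle library), cycling pre-B barcodes had none and a UMI of Mki67 or Top2a (990 and 731), mature B barcodes had none of these or of Rag1 and a UMI of both Ighd and Ms4a1 (111 and 116), and the remaining Rag1-negative barcodes numbered 512 and 477. Because the rule separated these classes, the contrasts between them are descriptions with no test. Median depth differed, at 5451 and 4728 UMIs per resting member against 12068 and 10259 per cycling pre-B barcode, 9656 and 8939 per pro-B barcode, 4561 and 4424 per Rag1-negative barcode and 5829 and 4838 per mature B barcode.

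Against pro-B barcodes, 6.15% of 10716 genes were at least 2-fold higher in members in both libraries and 15.9% at least 2-fold lower. The surrogate light chain was among the lower ones, and cycling pre-B barcodes lay between. Igll1 stood at 24.6 CPM in 1NMPP1 members and 25.5 CPM in vehicle members, against 118 and 124 CPM in cycling pre-B and 1006 and 962 CPM in pro-B barcodes. Vpreb1 followed the same order, with 37.7 and 36.5 CPM in members, 125 and 130 CPM in cycling pre-B and 1609 and 1486 CPM in pro-B barcodes. Vpreb3 went the other way, at 2492 and 2468 CPM in members against 1142 and 1163 CPM in cycling pre-B barcodes. After each cell was thinned to 2000 UMIs, so that depth was alike, a surrogate light chain UMI was left in 4.57% and 4% of members, 16.0% and 13.2% of cycling pre-B and 78.8% and 85.1% of pro-B barcodes. The share in neutrophils, which should lack these genes, was 1.36% and 0.645%.

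**Figure D1:**
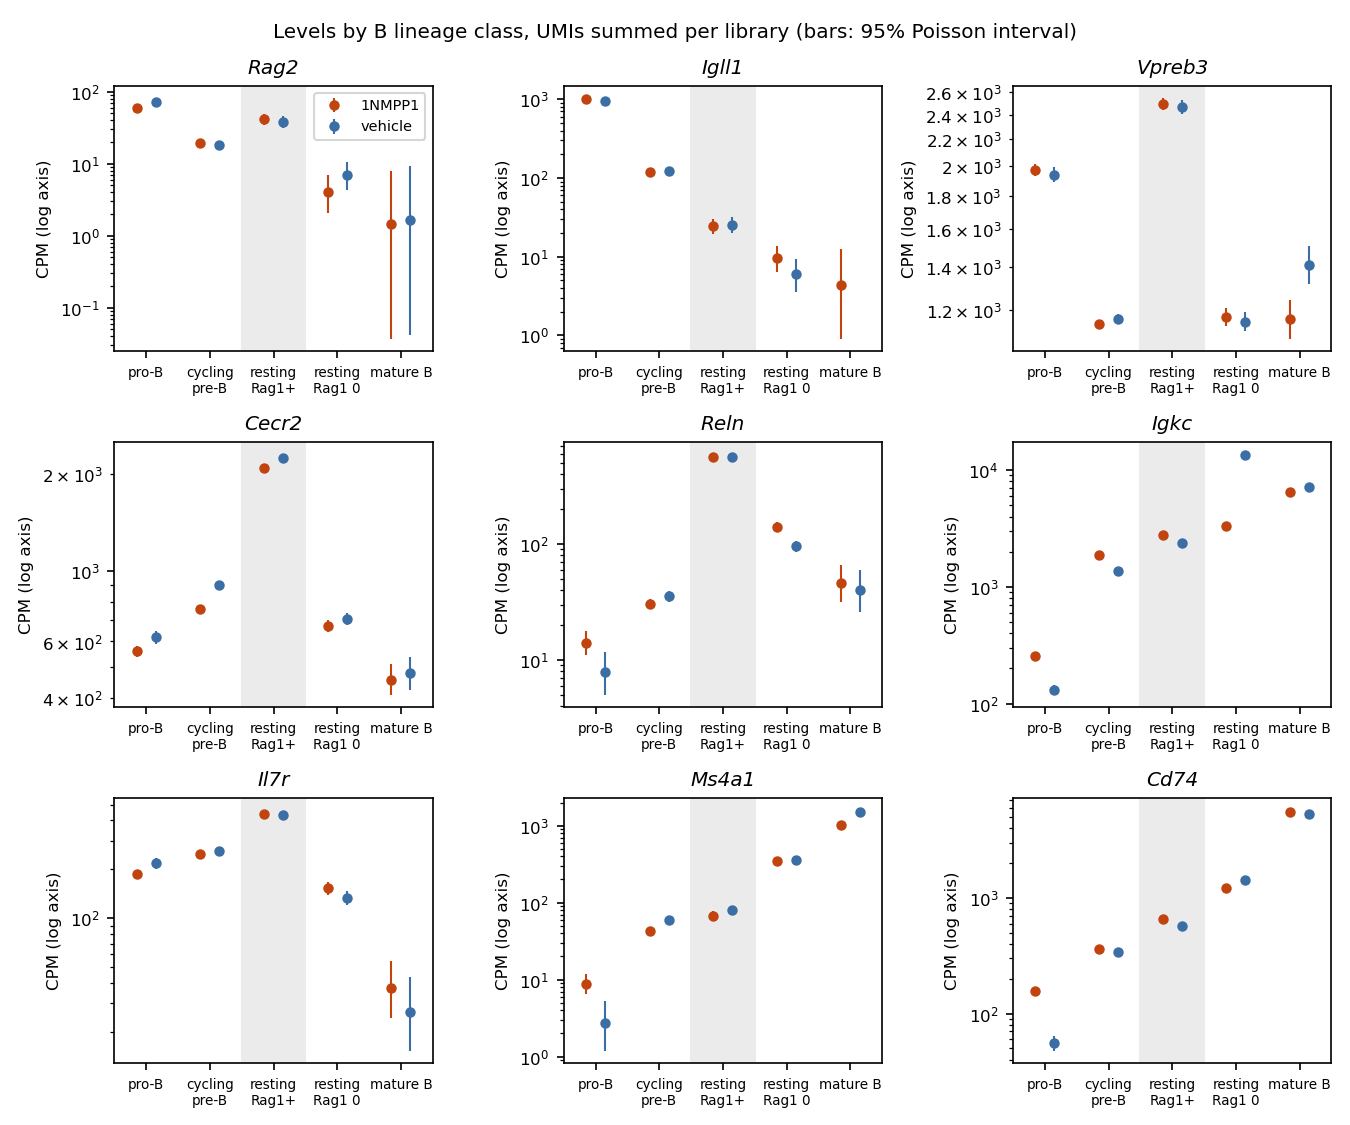
Level in CPM on log axes of 9 genes in pro-B, cycling pre-B, resting Rag1-positive, Rag1-negative and mature B barcodes, with the 1NMPP1 library left of the vehicle library in each class and bars for the exact Poisson interval. The surrogate light chain gene Igll1 steps down towards the resting members, Vpreb3, Cecr2 and Reln peak in them, and Ms4a1 and Cd74 are highest in mature B barcodes; a class with 0 UMIs has no point.

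Differences between resting members and cycling pre-B barcodes were of similar size in both libraries for the genes named here. Of 12625 genes with enough UMIs to read, 7.07% were at least 2-fold higher in members in both libraries and 18.8% at least 2-fold lower. The rule used this contrast, so nothing is read from these shares. The 10 genes named by rank at the upper end were led by Reln, which encodes the secreted protein reelin, at 562 CPM in 1NMPP1 members and 567 CPM in vehicle members against 30.5 and 35.3 CPM in cycling pre-B barcodes. Its log2 ratio of members over cycling pre-B was 4.20 and 4.0, yet only 41.8% and 39.0% of members had a Reln UMI. Tmem163, a membrane zinc transporter, stood at 1230 and 1443 CPM against 133 and 165 CPM, and Cacna1e, a voltage-gated calcium channel subunit, at 873 and 1034 CPM against 105 and 118 CPM. The others were BE692007, Col5a3, Agbl1, Scimp, Snx29, Prm1 and Fgd6, with log2 ratios between 2.75 and 3.62. Reln was also above its level in mature B barcodes (46.2 and 40.0 CPM), while Tmem163 was not (1283 and 1581 CPM), so Reln marks a part of the resting members and Tmem163 carries on into mature B barcodes.

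Quiescence and signalling genes were among those higher in resting members. Of 15 quiescence genes, a list that also holds the marker Cecr2, 10 were at least 2-fold higher in both libraries. Of all genes read, 7.07% were, which is the share to set beside the lists that follow here. Btg1, which slows proliferation, had log2 ratios of 2.06 and 2.10, its relative Btg2 1.40 and 1.28, and Cdkn1b, which encodes the cell cycle inhibitor p27, 1.31 and 1.34. Among 23 B lineage transcription factors, 7 were at least 2-fold higher, among them Foxo1, which drives Rag transcription, at 1.68 and 1.69, Bach2 at 1.64 in both libraries and Sox4 at 1.43 and 1.5. Of 16 B cell receptor signalling genes, 7 were at least 2-fold higher, including the adaptor Blnk (1.60 and 1.5), which couples the pre-B receptor to the end of the burst of division, and the kinases Syk (1.46 and 1.51) and Blk (1.44 and 1.21). The NF-kB target list had 6 of 13 genes at least 2-fold higher, such as the survival gene Birc3 with 1.81 and 1.94.

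Division and growth genes were at the other end. All 18 S phase genes and all 16 genes of G2 and mitosis were at least 2-fold lower in members in both libraries, where 18.8% of all genes were. The rule fixed 2 division genes at 0, which bears on every gene of these lists. The genes named by rank at the lower end were Esco2, Hist1h2ag, Kif14, E2f7, Shcbp1, Lrr1, Cdca5, Pclaf, Hist1h3c and Kif4, most of which had 0 to 4 UMIs in the members of a library. Pclaf, a partner of the replication clamp, kept 45 and 23 UMIs, or 13.05 and 8.49 CPM, against 781 and 751 CPM in cycling pre-B barcodes. Pcna, the clamp itself, was not absent: 34.1% and 31.8% of members had a UMI, at 85.0 and 82.7 CPM against 469 and 462 CPM. Of 15 glycolysis and hypoxia genes, 8 were at least 2-fold lower, beside the same 18.8%, with Ldha at 62.3 and 74.6 CPM against 264 and 320.5 CPM. Myc stood at 1.16 and 1.85 CPM against 18.2 and 22.3 CPM, and Ccnd2, a cyclin induced by IL7, at 15.1 and 13.3 CPM against 64.4 and 93.01 CPM. Il7r, the IL7 receptor chain itself, was not lower, at 440.1 and 431 CPM in members against 248 and 259 CPM.

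Mature B barcodes differed from resting members in antigen presentation and follicle genes. Of 8902 genes read, 4.11% were at least 2-fold higher and 4.59% at least 2-fold lower in members in both libraries, and the mature barcodes had been chosen by Ms4a1 and Ighd. Of 17 mature B cell genes, 16 were at least 2-fold lower in members. Cd74, the invariant chain of MHC class II, stood at 655 and 575 CPM in members against 5576 and 5286 CPM in mature B barcodes. Ms4a1, which encodes CD20, was at 67.6 and 80.1 CPM against 1028 and 1496 CPM. Cd83 was at 4.35 and 1.48 CPM against 227 and 268.5 CPM, Cxcr5, the follicle homing receptor, at 7.83 and 9.60 CPM against 134 and 145 CPM, and the survival gene Bcl2 at 4.93 and 0.738 CPM against 169 and 195 CPM. Egr3, H2-DMb2, March1, Rasgef1b and Gpr183 had log2 ratios of members over mature B between −5.26 and −3.91, and Fcer2a had 0 and 4 UMIs in members against 61 and 42 in mature B barcodes.

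Precursor genes lay on the other side. Il7r was at 440.1 and 431 CPM in members against 37.5 and 26.7 CPM in mature B barcodes, Sox4 at 748 and 727 CPM against 114 and 155 CPM, and Nav2 at 193 and 207 CPM against 17.3 and 20.0 CPM. Rag2 had 143 and 104 UMIs in members and 1 in the mature B barcodes of each library. Irs1, Smtnl2, Grip1, Capsl, Col25a1 and Prm1, the other genes ranked highest, had between 0 and 8 UMIs in the mature B barcodes of a library, and no ratio is given for them.

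Rag1-negative barcodes, which the rule parts from members by the absence of a Rag1 UMI, differed in other genes too. Immediate early and stress genes were lower in members: 11 of 16 were at least 2-fold lower in both libraries, where 14.6% of the 10844 genes read were. Of 23 B lineage transcription factors, 7 were at least 2-fold higher in members, where 3.45% of genes were, among them Tcf3 (512 and 485 CPM against 235 and 199 CPM) and Bach2 (10367 and 11950 CPM against 3628 and 3885 CPM). Fos stood at 70.2 and 100.4 CPM in members against 788 and 654 CPM in Rag1-negative barcodes, and Junb at 287 and 299.7 CPM against 1244 and 829 CPM. Ighm (4866 and 4685 CPM against 2495 and 2377 CPM), Vpreb3 and Cecr2 were higher in members, and Rag2 was at 41.5 and 38.4 CPM against 3.99 and 6.99 CPM. Stromal markers summed to 18.8 and 373 CPM in members against 4937 and 3866 CPM in Rag1-negative barcodes, and neutrophil markers to 9607 and 7892 CPM against 23741 and 11181 CPM; their part in this contrast was not tested.

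Light chain RNA was present in most resting members. Igkc, the kappa constant region (chr6:70726435-70726966), stood at 2764 CPM (2708 to 2820) in 1NMPP1 members and 2361 CPM (2303 to 2420) in vehicle members, against 1857 and 1378 CPM in cycling pre-B and 6449 and 7151 CPM in mature B barcodes. Thinned to 2000 UMIs per cell, 83.0% (79.8 to 85.9) and 82.5% (78.9 to 85.6) of members kept an Igkc UMI, as did 66.4% and 66.7% of cycling pre-B and 22.8% and 13.1% of pro-B barcodes. Neutrophils, which should lack it, had 7.38% and 3.19%. For the lambda constant regions Iglc1, Iglc2 and Iglc3 together, the thinned share was 48.0% (43.9 to 52.0) and 47.6% (43.3 to 52.0) in members, 11.5% and 14.1% in cycling pre-B, 84.3% and 77.3% in mature B barcodes and 1.53% and 1.44% in neutrophils. Kappa was therefore already common in cycling pre-B barcodes, and lambda was several times as common in resting members as in cycling ones in both libraries. The 3 lambda genes are related, to a degree not measured here, so the split of UMIs between them may be uncertain and their sum is firmer.

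At a minimum of 3 UMIs, which fewer than 1% of neutrophils met for either chain, members were divided by light chain. Kappa alone was found in 334 of 634 1NMPP1 members (52.7%) and 277 of 554 vehicle members (50%), and both chains in 160 (25.2%) and 133 (24.0%). Lambda alone was found in 95 (14.98%, 12.3 to 18) and 75 (13.5%, 10.8 to 16.7). These shares lay close together in the libraries. Neither chain was found in 45 (7.10%, 5.22 to 9.38) and 69 (12.5%, 9.82 to 15.5), and median depth was lower in the vehicle library, whose part in this was not tested. In cycling pre-B barcodes lambda alone made up 1.82% and 1.92% and neither chain 25.5% and 24.9%, while in mature B barcodes both chains made up 68.5% and 64.7%. UMIs cannot tell an unrearranged constant region from a joined one, so a cell with both chains is not shown to make both proteins.

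**Figure D2:**
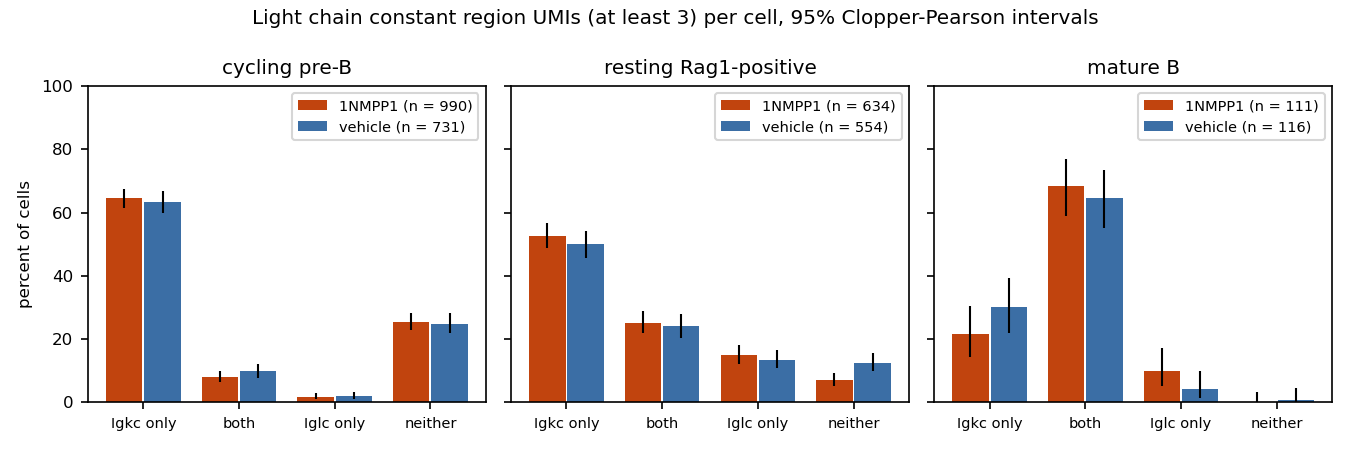
Percent of cells with at least 3 UMIs of Igkc only, of both chains, of the lambda constant regions only, or of neither, in cycling pre-B, resting Rag1-positive and mature B barcodes, with 1NMPP1 left of vehicle in each class. Lambda without kappa is at 14.98% and 13.5% in resting members and under 2% in cycling pre-B barcodes.

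Variable region genes gave a further look at kappa. A UMI of any of 160 Igkv genes was found in 38.5% of 1NMPP1 members and 36.8% of vehicle members, against 0.285% and 0.147% of neutrophils. Only 30 and 15 members had 3 or more Igkv UMIs. In these the leading gene took a median of 66.7% of the cell's Igkv UMIs in both libraries, and 5 and 3 cells had at least 80% on a single gene. Igkv1-135 led in 8 of 30 and 6 of 15, which is 26.7% (12.3 to 45.9) and 40.0% (16.3 to 67.7). Variable genes resemble each other, and reads of unrearranged segments are counted alike, so the leading gene is not read as the rearranged one.

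Members were not uniform. The groups below were formed after the values were seen and are described without tests. The 83 members with a Ms4a1 UMI in the 1NMPP1 library and the 69 in the vehicle library were set against the 551 and 485 without one. With Ms4a1 went genes of later B cells: Bank1, a signalling scaffold, was higher by 2.65 and 2.44 on the log2 scale. Btla, an inhibitory receptor, was higher by 2.55 and 2.81 and Cd74 by 1.36 and 0.89. Cxcr5 was higher by 2.41 and 2.21, on 12 and 10 UMIs in the members with Ms4a1. Other genes of mature B cells did not go with it in both libraries: the MHC class II chain H2-Aa stood at 0.90 and −0.83, with 16 UMIs in the 69 vehicle members, and Ighd, the IgD constant region, at −0.16 and 0.29. The lambda genes Iglc2 (2.24 and 2.15) and Iglc1 (2.01 and 2.33) were higher as well, whereas Igkc differed by 0.40 and 0.17. Precursor genes were lower: Il7r by −1.10 and −1.66, Lef1 by −1.65 and −1.52, Ezh2, a histone methyltransferase, by −2.29 and −1.75, and Rag2 by −0.95 and −1.31. The median depth was 5094 and 4192 UMIs with Ms4a1 against 5542 and 4768 UMIs without; its part in the split was not tested.

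**Figure D3:**
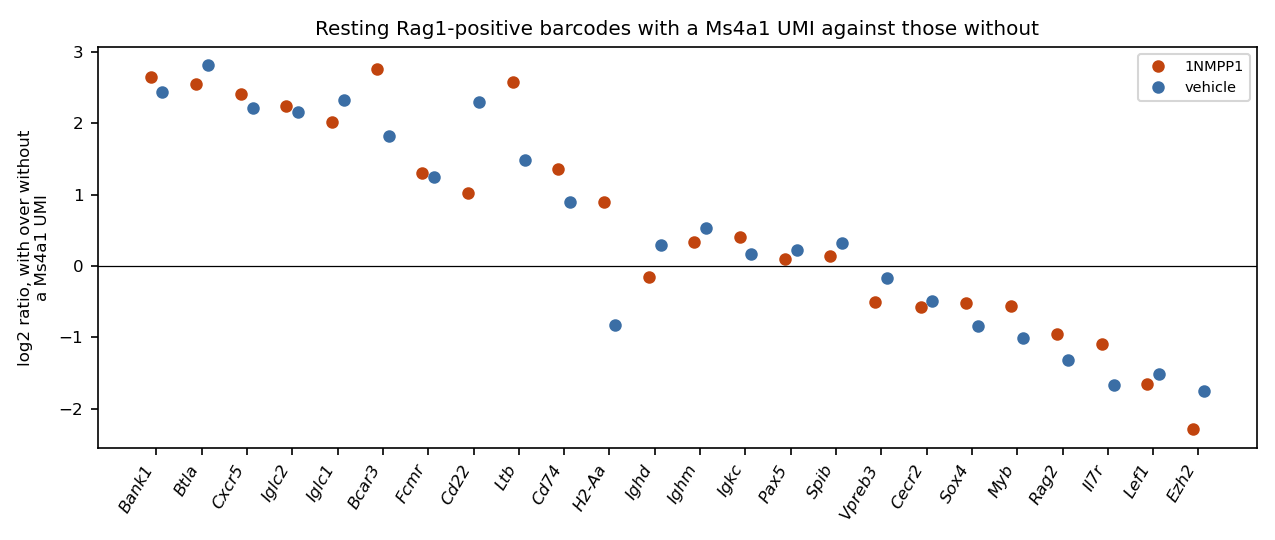
Log2 ratio of the level in resting members with a Ms4a1 UMI over those without one, for the 1NMPP1 and the vehicle library. Bank1, Btla, Cxcr5, Ltb and the lambda genes lie above 0 and Lef1, Il7r, Ezh2, Rag2, Myb, Sox4 and Cecr2 below 0 in both libraries, while H2-Aa and Ighd lie on different sides of 0 in them.

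A second group was formed by the 60 and 37 members that still had a surrogate light chain UMI. In them Lef1 was higher by 1.75 and 1.56 and Erg, a transcription factor of early B precursors, by 2.66 and 3.66, while Iglc2 was lower by −2.28 and −2.79 and Reln by −1.56 and −1.82. This group was not in all genes the reverse of the Ms4a1 group, since Cd74 was level (−0.03 and 0.09). Ms4a1 stood at −0.95 and 0.24, on 13 and 20 UMIs in the group. Cxcr5 was higher here too (1.63 and 1.85), but on only 7 and 6 UMIs in these members. Their median depth was 6004.5 and 4985 UMIs against 5414.5 and 4676 UMIs. Members with lambda alone (95 and 75) shared a higher Ms4a1 level (1.63 and 1.52) with the first group but had lower Cd74 (−1.20 and −1.24) and lower Cd24a (−0.96 and −0.63). They were shallower, with a median of 4149 and 3905 UMIs against 5670 and 4878 UMIs, and the part of depth in this group, which was chosen by having fewer than 3 Igkc UMIs, was not tested. One more split, by a Pcna UMI (216 and 176 members), gave no common pattern in B cell genes: Pax5 (0.02 and 0.00) and Vpreb3 (−0.02 and −0.05) were nearly level, Igll1 stood at −0.76 and −0.18, and Ms4a1 (0.75 and −0.82) and Iglc2 (0.64 and −0.55) took opposite signs in the libraries.

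The frequency of resting members was compared between treatments. They made up 5.45% of kept barcodes in the 1NMPP1 library (5.04 to 5.88) and 5.91% in the vehicle library (5.44 to 6.40), a log2 ratio of −0.12 (−0.28 to 0.05). Among Ebf1-positive barcodes they were 634 of 3936 or 16.1% (14.97 to 17.3) and 554 of 2736 or 20.2% (18.8 to 21.8), a log2 ratio of −0.33 (−0.50 to −0.16). Within the 5 B classes they were 24.6% (22.9 to 26.3) and 26.3% (24.4 to 28.2), a log2 ratio of −0.10 (−0.26 to 0.07). The interval lies below 0 for the Ebf1-positive denominator and holds 0 for the others. That denominator also counts barcodes that the filter on Ly6g and Csf1r leaves out of all classes. With every barcode thinned to 2000 UMIs before the rule, the log2 ratio among Ebf1-positive barcodes was −0.03, and with at least 5 Ebf1 UMIs asked for it was −0.07. Within male-called barcodes it was −0.37 (−0.67 to −0.07) and within female-called ones −0.19 (−0.46 to 0.09).

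The same rule found 82 barcodes among 2201 kept in the 1NMPP1 DRG library (3.73%, 2.97 to 4.60) and 94 among 2938 in the vehicle DRG library (3.20%, 2.59 to 3.90), a log2 ratio of 0.22 (−0.23 to 0.66). Their levels of Vpreb3 (1332 and 1819 CPM), Rag2 (30.2 and 30.3 CPM) and Reln (463 and 336 CPM) show the same genes as in the growth plate, side by side and without a comparison, since the tissues were dissociated differently. Some of these DRG barcodes were far deeper than the rest, up to 202391 and 231014 UMIs. All of them together had 529334 and 791267 UMIs, so single barcodes weigh heavily in the levels given. Transcripts of an added tdTomato sequence were found in 1 and 4 of the DRG barcodes that met the rule.

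Gene levels in resting members were compared between 1NMPP1 and vehicle over 10294 genes with at least 20 UMIs. At least 2-fold apart were 509 genes (4.94%), of which 130 were higher (1.26%) and 379 lower (3.68%) in 1NMPP1 members. The median log2 ratio of all genes was −0.02. Among the 6603 genes with at least 100 UMIs, 99 were 2-fold apart (1.5%). The balance moved with carrier members: without the 9 and 12 of them, 324 genes were 2-fold apart and 176 of those lower, so that 45.7% were higher in 1NMPP1 members, against 25.5% with them. Thinning each cell gave 258 genes, 129 of them lower.

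Genes of the pre-B stage differed little between the libraries as a whole, although several of them differed within sex calls, as given further on. Of all genes read, 47.3% were higher in 1NMPP1 members, which is the share to set beside the counts of lists. All 6 pre-B receptor genes read were within 2-fold, with a median log2 ratio of 0.03, and so were the 7 light chain and constant region genes (0.05), the 23 B lineage transcription factors (−0.12, 15 of them lower), the 16 receptor signalling genes (−0.10, 13 lower), the 15 quiescence genes (0.10, 10 higher) and the 14 mature B cell genes (−0.07). Rag2 had a log2 ratio of 0.11 (−0.26 to 0.49). Igkc had 0.23 (0.18 to 0.27), with 0.34 in male-called and 0.13 in female-called members. Of 14 recombination and end joining genes, 7 were higher and 7 lower, with a median of 0.00. All 11 IL7 receptor signalling genes read were higher, none by 2-fold, with a median of 0.12. Within sex calls, without carrier members, not all of them were. Il7r stood at −0.17 in male-called and 0.07 in female-called members, Jak1 at 0.16 and −0.12 and Stat5a at 0.53 and −0.38. For NF-kB targets 10 of 12 were lower, with a median of −0.19, among them Birc3 at −0.24 (−0.37 to −0.11). The lists of apoptosis (11 genes, 0.02), glucocorticoid response (10 genes, 0.03) and homing genes (14 genes, 0.01) had medians close to that of all genes. Of the cycle lists, S phase genes had a median of 0.14 (17 genes) and those of G2 and mitosis 0.29 (12 genes), at a few UMIs per gene.

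**Figure D4:**
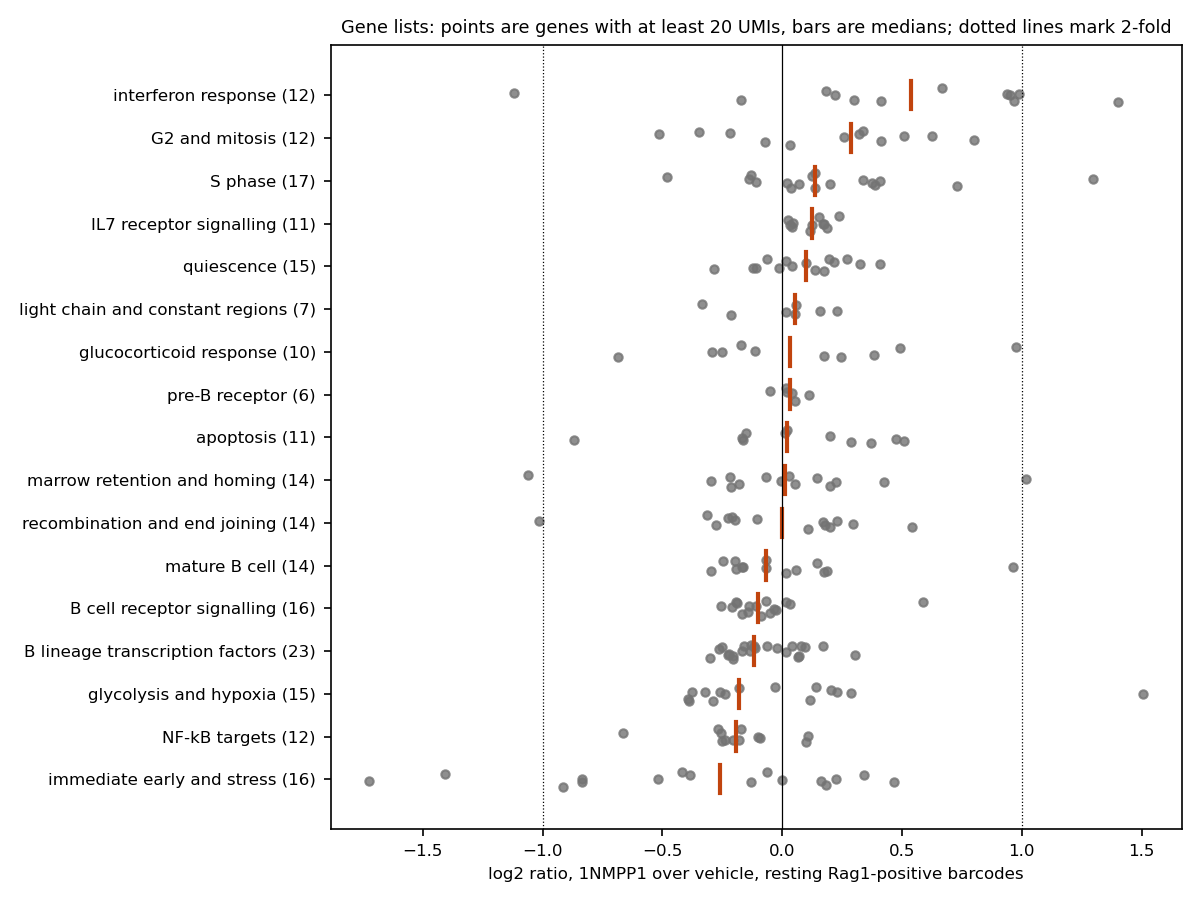
Log2 ratio of 1NMPP1 over vehicle in resting members, with a point for each gene read in each of 17 lists and a bar at the list's median. Most medians lie within 0.2 of 0; interferon response genes have the highest at 0.54 and immediate early genes the lowest at −0.26.

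Interferon genes were the list farthest above 0. Of 12 read, 10 were higher in 1NMPP1 members, where 47.3% of all genes were, with a median log2 ratio of 0.54. At least 2-fold higher was 1 gene, beside 1.26% of all genes. At least 2-fold lower was 1 gene, Rsad2, with 8 and 14 UMIs (−1.12, −2.62 to 0.20), beside 3.68% of all genes. Xaf1 stood at 21.5 and 11.1 CPM (0.94, 0.32 to 1.62), Zbp1, a sensor of nucleic acids, at 13.9 and 7.01 CPM (0.97, 0.20 to 1.84) and Bst2, the virus tether tetherin, at 41.2 and 25.8 CPM (0.67, 0.25 to 1.11). Genes named by rank outside the list include further interferon-inducible ones: Ifi27l2a stood at 794 CPM (765 to 824) in 1NMPP1 members and 324 CPM (303 to 347) in vehicle members, with a UMI in 69.1% and 43.3% of them, a log2 ratio of 1.29 (1.18 to 1.40). Ifi214 had 62.9 and 25.1 CPM (1.32, 0.93 to 1.74) and its neighbour Ifi206 29.9 and 10.7 CPM (1.46, 0.87 to 2.13). The difference was not confined to these cells. In kept barcodes without an Ebf1 UMI, Ifi27l2a had a log2 ratio of 0.97, Ifi214 0.88 and Ifi206 1.12, and in cycling pre-B barcodes 0.92, 1.03 and 0.98; whether members differed more was not tested.

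Sex calls split the interferon result in size. Over the same 12 genes the median was 0.96 in male-called and 0.18 in female-called members, and 10 and 9 of the genes were higher, 7 of them in both. Ifi27l2a was higher in both, at 1.77 (1.61 to 1.94) in male-called and 1.02 (0.82 to 1.22) in female-called members. Xaf1 was at 1.69 (0.73 to 2.77) in male-called and −0.29 (−1.14 to 0.71) in female-called members. Without carrier members, Ifi214 was higher in both, at 1.41 (0.84 to 2.01) and 1.61 (0.84 to 2.61). So was Ifitm3 of the list, at 0.90 (0.09 to 1.72) and 1.16 (0.37 to 2.17). Female-called intervals held 0 for Ifi206, at 2.18 (1.26 to 3.25) and 0.59 (−0.28 to 1.67). They also did for Bst2, at 1.47 (0.76 to 2.22) and 0.20 (−0.48 to 0.97), and Zbp1, at 2.05 (0.78 to 3.61) and 0.37 (−0.86 to 2.02). The part of single animals in this cannot be told apart, since each library has an unstated number of them.

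Il31ra, a cytokine receptor chain, was found in 100 of 634 1NMPP1 members and 27 of 554 vehicle members, at 32.5 CPM (26.7 to 39.1) and 9.97 CPM (6.57 to 14.5). Its log2 ratio was 1.68 (1.09 to 2.37) in members, 1.33 in barcodes without Ebf1 and 1.00 in cycling pre-B, and within sex calls 1.30 (male) and 1.52 (female). Adrm1, a ubiquitin receptor of the proteasome, stood at 38.3 and 12.6 CPM (1.59, 1.06 to 2.20), with 1.07 in barcodes without Ebf1. Hmgn2, a nucleosome binding protein, had the highest ratio of the genes that could be named by rank, those with at least 100 UMIs and a UMI in at least 10% of members, at 2.04 (1.62 to 2.49), at 82.3 and 19.9 CPM, with 1.93 in male-called and 1.73 in female-called members. It was also higher outside the B lineage, at 1.17. Hmgn2, Hmga1 (1.62), Eno1 (1.51) and Sap18 (1.29) have near-identical copies in the genome, and for some the copy moved the other way, as Hmga1b did at −0.62. Their ratios are uncertain for that reason, as is that of the ferritin pseudogene Ftl1-ps1 (−1.05), beside 0.51 for Ftl1. Hmga1, Eno1 and Sap18 were also higher in barcodes without Ebf1, at 1.63, 2.20 and 1.09. In cycling pre-B barcodes these genes stood at 1.81, 1.96 and 1.18.

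Some genes named by rank rested wholly or partly on a handful of members. Sparc (−4.56) and Col2a1 (−4.48) had most of their vehicle UMIs in the pair of members named above. Without carrier members, Sparc stood at 0.01 in male-called and 0.35 in female-called members. Col2a1 stayed lower, at −0.81 (−1.44 to −0.25) and −0.97 (−1.42 to −0.50), and was at −1.98 in barcodes without Ebf1. Mgp (−1.02) turned to 0.59 without carrier members, after 2 vehicle members had held 145 of 207 UMIs. The 2 members with the most Ltf UMIs, a neutrophil granule gene (1.24), held 281 of 690 UMIs in the 1NMPP1 library and 13 of 229 in the vehicle library. Cxcl2 (−1.39) and Il1b (−1.26), inflammatory genes of myeloid cells, had 54 of 122 and 88 of 233 UMIs in 2 members of the 1NMPP1 library and 112 of 251 and 147 of 438 in 2 members of the vehicle library, and turned to 0.24 and 0.63 when barcodes with the highest doublet scores were removed. Without carrier members, Cxcl2 was still lower, at −1.58 (−2.65 to −0.72) in male-called and −1.01 (−1.70 to −0.27) in female-called members. Il1b stood there at −1.42 (−2.06 to −0.86) and −0.40 (−0.93 to 0.17). Cd9 (−1.24) had 18 of 83 and 71 of 154 UMIs in 2 members. Its values by sex call without carrier members were −0.99 (−2.09 to −0.07) and −0.45 (−1.37 to 0.59). The immediate early list belongs here too: its median was −0.26, with 2 of 16 genes at least 2-fold lower, where 3.68% of all genes were, Egr1 (−1.72, −2.16 to −1.31) and Atf3 (−1.41, −2.32 to −0.58), and without carrier members the median was 0.05, Egr1 stood at −0.42 and Atf3 at −0.80.

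Pde1c, Tecpr2 and Acaca were lower in 1NMPP1 members and spread over many of them. Pde1c, a cyclic nucleotide phosphodiesterase, was found in 40 and 80 members, at 13.6 and 39.5 CPM (−1.53, −2.06 to −1.03), and was also lower in barcodes without Ebf1 (−1.30). Tecpr2, an autophagy protein, stood at 13.05 and 32.9 CPM (−1.32, −1.88 to −0.80). Acaca, which encodes acetyl-CoA carboxylase, the entry enzyme of fatty acid synthesis, stood at 15.4 and 33.6 CPM (−1.12, −1.65 to −0.62), beside −0.38 in barcodes without Ebf1. Without carrier members, Pde1c stood at −1.71 in male-called and −1.82 in female-called members, and Tecpr2 at −1.18 in each. Their intervals lay below 0 in both calls. Acaca was at −1.45 (−2.59 to −0.54) in male-called and −0.56 (−1.40 to 0.38) in female-called members, so its female-called interval held 0.

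Log2 ratios of listed genes were also set side by side within sex calls. Of 202 with at least 50 UMIs in each call, 80 (39.6%) had opposite signs in male-called and female-called members. Signs can differ by counting error where ratios lie near 0. Intervals on opposite sides of 0 were found for 20 genes (9.90%), 10 of them also without carrier members. The same shares over all genes were not computed. Among the 20 were 3 lambda constant region genes, Reln, B cell signalling genes and the factors Klf2, Klf6 and Mef2c. Klf2, a factor of quiescence and trafficking, stood at 549 CPM in 1NMPP1 members and 439 CPM in vehicle members (0.32, 0.22 to 0.43). In male-called members it was at 782 and 382 CPM (1.03, 0.86 to 1.20), and in female-called members at 449 and 592 CPM (−0.40, −0.56 to −0.23). Iglc2 stood at 384 and 484 CPM (−0.33, −0.44 to −0.22), with 540 and 303 CPM in male-called members (0.83, 0.63 to 1.03) and 297 and 739 CPM in female-called members (−1.31, −1.48 to −1.15). In the 1NMPP1 library male-called members had more of both, and in the vehicle library female-called members did.

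Iglc1 followed Iglc2, at 955 and 491.5 CPM in male-called members (0.96, 0.81 to 1.11) and 559 and 855 CPM in female-called members (−0.61, −0.75 to −0.47), beside 0.02 over all members. Higher in male-called and lower in female-called members were also Tsc22d3, a glucocorticoid-induced gene (0.78 and −0.60), Bcar3 (0.96 and −0.92), the kinase gene Blk (0.31 and −0.40), Mef2c (0.45 and −0.36), Klf6 (0.50 and −0.77), Reln (0.41 and −0.30), Agbl1 (0.16 and −0.59) and Iglc3 (0.34 and −0.24). Cd74 (−0.49 and 0.31) and Junb (−0.36 and 0.31) went the other way. Without carrier members the intervals of Iglc3, Agbl1 and Junb no longer lay on opposite sides.

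**Figure D5:**
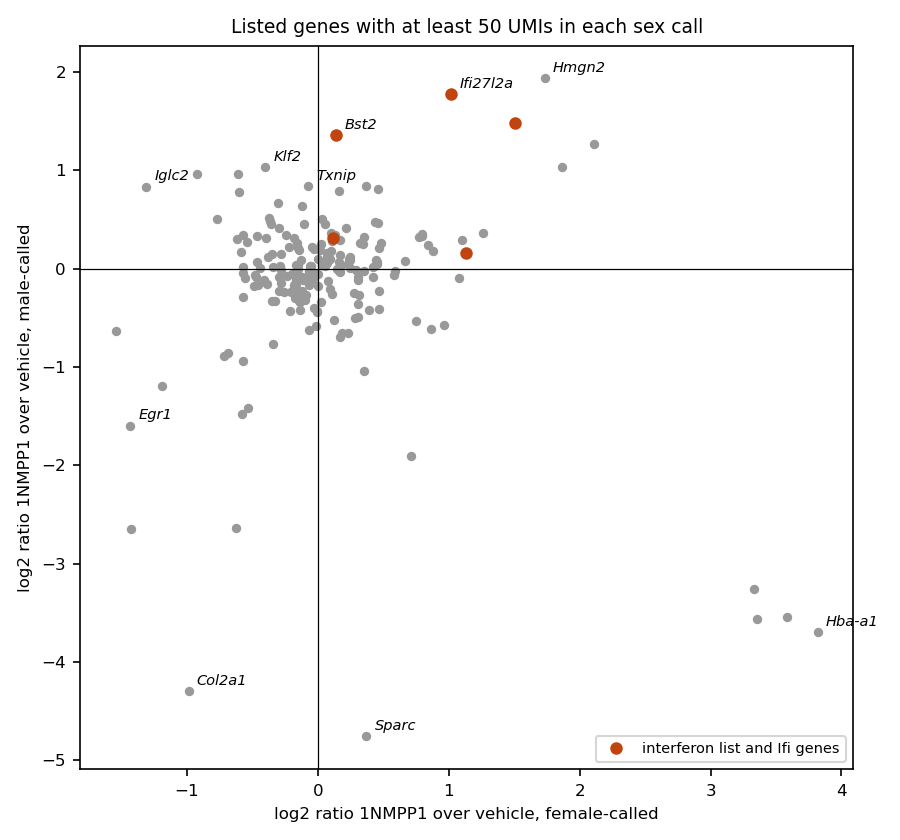
Log2 ratio of 1NMPP1 over vehicle in female-called members (horizontal) against male-called members (vertical) for 202 listed genes with at least 50 UMIs in each sex call. Ifi27l2a and Hmgn2 are above 0 on both axes, while Klf2 and Iglc2 are above 0 in male-called and below 0 in female-called members, and 80 of the 202 points lie in the 2 quadrants of opposite sign.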

How the data were processed

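Raw UMI counts per gene and barcode were deposited by the authors without normalization. Per the file headers they come from Cell Ranger 7.2.0, and per the submitters' processing notes from mm10; no source used here names the annotation release. The members, gene lists and markers were chosen with earlier results of these data known. UMIs were summed over the members of a library and scaled to CPM (exact Poisson intervals). Log2 ratios had 0.5 UMI added to each sum (exact conditional intervals), and shares have exact Clopper-Pearson intervals, all at 95% and for counting error only. Genes were read from 20 UMIs; called means at least 2-fold. The genes named by rank are the 10 highest and 10 lowest log2 ratios with at least 100 UMIs and a UMI in at least 10% of members, leaving out sex-linked, predicted, mitochondrial, hemoglobin, ribosomal and immunoglobulin genes and those of the rule. Other genes in the text are list members or were chosen after their values were seen. Doublets were left in; Scrublet's highest scores, removed as an alternative, took 9 and 18 members of the 1NMPP1 and vehicle libraries. A sex call needed UMIs of Y-linked genes or of Xist and none of the other. The intervals were tried only on data simulated with Poisson or binomial counts, the model they assume. Such counts lack the clumping of UMIs in single members seen here, so coverage in these data was not tested. The targeted gene is not reported here. Software was scanpy 1.11.5, pandas 2.3.3, scipy 1.17.1, numpy 2.4.6 and matplotlib 3.10.9 in Python 3.11.15.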

Additional observations from a re-analysis of the deposited data

Results flagged for a closer look

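Of 202 listed genes with at least 50 UMIs in each sex call, 20 had intervals that lay on opposite sides of 0 in male-called and female-called members, as log2 ratios of 1NMPP1 over vehicle; the difference between the calls was not tested. In 11 of them the male-called value was above 0, followed here by the female-called one: Klf2 (1.03 and −0.40), Bcar3 (0.96 and −0.92), Iglc1 (0.96 and −0.61), Iglc2 (0.83 and −1.31), Tsc22d3 (0.78 and −0.60), Klf6 (0.50 and −0.77), Mef2c (0.45 and −0.36), Reln (0.41 and −0.30), Iglc3 (0.34 and −0.24), Blk (0.31 and −0.40) and Agbl1 (0.16 and −0.59). In 9 it was below 0. Of these, Cd74 stood at −0.49 and 0.31 and Junb at −0.36 and 0.31. Genes of other cells made up the rest. The hemoglobin genes stood at −3.70 and 3.82 (Hba-a1), −3.57 and 3.36 (Hba-a2), −3.25 and 3.33 (Hbb-bs) and −3.55 and 3.58 (Hbb-bt). The neutrophil genes stood at −0.086 and 0.42 (S100a8) and −0.27 and 0.31 (S100a9), and the matrix gene Mgp at −1.90 and 0.71. Without carrier members 10 of the 20 still had intervals on opposite sides; those that did not were the hemoglobin genes, S100a8, S100a9, Mgp, Iglc3, Agbl1 and Junb, with Hba-a1 at −0.77 and −0.19 and Mgp at 0.31 and 0.72.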

How the results depend on the processing

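No paired analysis was possible because each group has 1 library. Of 16 alternatives, leaving out carrier members (also within sex calls) and asking for 5 Ebf1 UMIs were chosen after the data were seen, as were the class counts. The log2 ratio of the share of kept barcodes ran from −0.22 to 0.055, the upper end with 2 Rag1 UMIs asked for; among Ebf1-positive barcodes that setting gave −0.16, thinning −0.027 and 5 Ebf1 UMIs −0.067. The 509 genes past 2-fold (130 higher, 379 lower) became 258 (129 lower) after thinning, 324 (176 lower) without carrier members, 99 (22 higher, 77 lower) from 100 UMIs and 1793 (502 higher, 1291 lower) with 1 UMI in each library. A wider cycling filter left 227 lower, and female-called members had 265 higher and 195 lower. Thinning left 323 genes higher and 837 lower than in cycling pre-B barcodes, against 892 and 2370, and 217 lower than in mature B barcodes, against 409. Over the genes that reached 20 UMIs there, male-called members had list medians of 0.34 (light chain) and 1.30 (interferon), and female-called members −0.11 (quiescence). Of 52 genes followed through the alternatives, 19 had an interval over all members that held no 0 and a log2 ratio that changed sign under an alternative. They were Cxcl2 (0.24) and Il1b (0.63) with doublets removed, Bcl3 (0.048) after thinning, Mgp with the wider cycling filter (0.96) and without carrier members (0.59), in male-called members Iglc2 (0.83), Iglc3 (0.34), Cd74 (−0.49) and Agbl1 (0.16), and in female-called members Sparc (0.37), Mgp (0.71), Klf2 (−0.40), Xaf1 (−0.29), Txnip (−0.071) and Tsc22d3 (−0.60). Genes of other cells did so too: S100a8 and S100a9 were at −0.017 and −0.12 with 2 Rag1 UMIs, −0.23 and −0.30 after thinning, −0.45 and −0.51 with the wider cycling filter, −0.086 and −0.27 in male-called members and −0.049 and −0.17 with 5 Ebf1 UMIs. Hba-a1, Hba-a2, Hbb-bs and Hbb-bt were at −0.56, −0.60, −0.64 and −0.56 after thinning, −3.70, −3.57, −3.25 and −3.55 in male-called members and −0.35, −0.63, −0.23 and −0.39 without carrier members. The cause was not tested, except that higher or lower UMI minimums change how many genes are read. Scaling to the median of genes from 100 UMIs removes a shift of −0.01.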
